A study of Mus musculus with 12 samples.

Results

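The genes of the cytosolic ribosome were followed in mouse lungs after bleomycin injury. They were taken by name: every gene whose symbol starts with Rpl or Rps and a digit, plus Rplp0, Rplp1, Rplp2 and Rpsa, without symbols that hold -ps and without the Rps6k kinase genes. The rule found 94 of 55491 entries in the expression tables. They comprised 46 genes of large-subunit proteins, 31 genes of small-subunit proteins (77 subunit genes together), 8 paralogs such as Rps27l and Rpl22l1, 8 genes whose symbols mark them as copies, and Rps19bp1, which encodes a partner of Rps19 and not a ribosomal protein. In the GENCODE gene annotation the copies Rpl32l, Rpl37rt, Rpl6l, Rps12l1, Rps3a2 and Rps3a3 are processed pseudogenes, as is the paralog Rps4l. Bulk polyA RNA of whole lungs, all 5 lobes, had been sequenced from 12 mice in 3 groups of 4. All were wild-type C57BL/6J males of 10 weeks that had received oropharyngeal bleomycin (0.0125 U per mouse), a drug that injures the lung lining and leads to fibrosis. Day 21 NP mice had been given nanoparticles of poly(lactide-co-glycolide) inside a poly(ethylene-alt-maleic anhydride) coat, in 5 retro-orbital doses of 2 mg from day 14 to day 18. Day 21 vehicle mice had been given phosphate-buffered saline, the carrier of the particles. Day 14 mice had been taken before treatment, so that the passage of time and the injections cannot be told apart when day 21 is set against day 14. No uninjured lungs were analysed here.

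Each subunit of the ribosome is built from ribosomal RNA and a fixed set of proteins, and nearly every protein is needed in the same number, so their messenger RNAs are among the most abundant of any cell. These messengers start with a C followed by pyrimidines, the 5′ terminal oligopyrimidine (TOP) tract, through which the mTOR pathway sets how much of them is translated. Their production rises in growing and dividing cells, with MYC as a known activator of ribosome production. Some paralogs replace their parent protein in particular tissues: in mouse, Rpl3l is a muscle form, and Rpl10l and Rpl39l are forms of the male germ line.

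Total expected counts per library were 24138582 to 28910459 in NP lungs, 28001006 to 36208498 in vehicle lungs and 25706260 to 42714693 in day 14 lungs. Lung genes (Sftpc, Sftpb, Scgb1a1, Ager, Nkx2-1 and Cldn18) were detected in every group, with 0 of 6 at 0. Day 14 replicate 2 stood apart from the other libraries in the ribosomal genes. The mean share of transcripts, the correlation and spread of subunit genes, and the members called against day 14 are given with and without it. Shares by subunit or without mitochondrially encoded genes, and counts and medians of other gene lists, are given only with it. In bulk tissue, fewer cells of a type and less RNA per cell cannot be told apart.

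The ribosomal genes held 7.87 to 9.72% of the transcript pool of a library, measured as the share of all TPM (the transcript abundance scaled for gene length and library size). The share was 7.98, 8.08, 8.31 and 7.91% in the NP libraries, 8.29, 8.38, 8.06 and 8.002% in the vehicle libraries and 8.71, 9.72, 8.17 and 7.87% in the day 14 libraries. The day 21 libraries lay close together, while the day 14 libraries held both the highest and the lowest of the 12 values. The mean was 8.07 ± 0.175% in NP lungs, 8.18 ± 0.182% in vehicle lungs and 8.62 ± 0.813% in day 14 lungs (SD, n = 4 each), and the day 14 mean was 8.25 ± 0.428% without replicate 2. Large-subunit genes took 4.20 ± 0.108% in NP, 4.25 ± 0.0931% in vehicle and 4.54 ± 0.437% in day 14 lungs, and small-subunit genes 3.76 ± 0.0677% in NP, 3.82 ± 0.0869% in vehicle and 3.95 ± 0.366% in day 14 lungs. The 319 entries with -ps symbols, left out by the rule, held only 0.148 to 0.185% of TPM in any library.

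**Figure D1:**
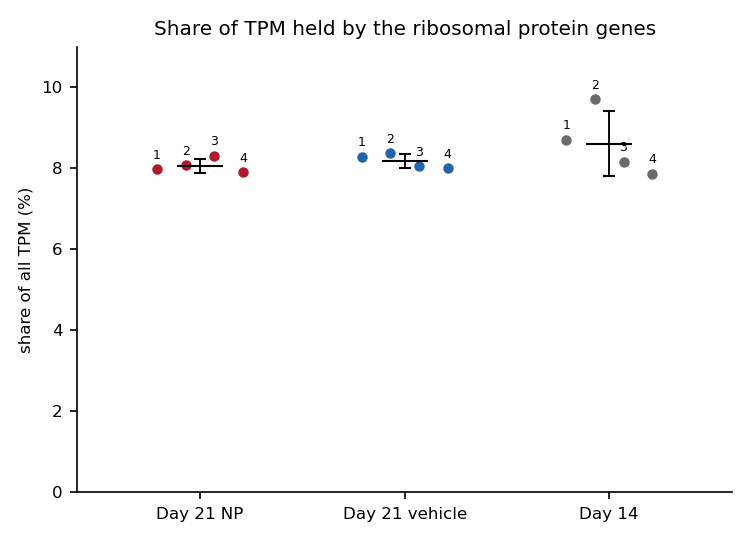
Share of all TPM held by the 94 ribosomal protein genes (vertical axis, percent) in each library of the 3 groups, with the replicate number above each point and the group mean ± SD in black. Day 14 replicate 2 is the highest point, at 9.72%.

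The subunit genes differed widely in level. On the length-scaled TPM scale and averaged over the 12 libraries, the small-subunit genes had a median level of 1192 TPM and the large-subunit genes one of 832 TPM. The highest level was 3193 TPM for Rps27, a small-subunit protein with a zinc-finger fold. Rps14 (2547 TPM) and Rps15 (2059.5 TPM) followed it in the small subunit. Rplp1, a protein of the flexible stalk that recruits elongation factors, was highest in the large subunit at 2658 TPM, followed by Rpl13a (2453 TPM). The lowest subunit gene was Rps20, at 333 TPM. The other stalk proteins, Rplp0 and Rplp2, had 904 and 683 TPM. These orders rest on the scaling for length and were different in expected counts, which are not scaled for it. Summed over the 12 libraries, Rps27 had 66452 counts, Rplp1 144989, Rplp2 56165 and Rplp0 236036.

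Proteins with known roles outside routine translation lay within the same range. Rps6, the subunit protein that S6 kinase phosphorylates, averaged 1165 TPM, and Rps19, the gene most often mutated in Diamond-Blackfan anaemia in humans, averaged 1192 TPM. Rpl5 and Rpl11, which bind Mdm2 together with 5S ribosomal RNA when ribosome assembly fails, averaged 479 and 863 TPM. Rpsa, also known as a laminin receptor, averaged 654 TPM, and Rps27a, made as a fusion with ubiquitin, 776 TPM.

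The paralogs were all below their parents in level, Rpl36al and Rpl22l1 the least so. Rpl36al averaged 343 TPM against 626 TPM for Rpl36a, and Rpl22l1 216 TPM against 614 TPM for Rpl22. Rps27l averaged 348 TPM against 3193 TPM for Rps27, a wider gap than in expected counts summed over the libraries (19124 against 66452). Rpl7l1 averaged 53.2 TPM against 953 TPM for Rpl7, and Rps4l 51.2 TPM against 1227 TPM for Rps4x. Rpl10l and the copy-named Rps12l1 had 0 counts in every library, under a floor of 3 counts per library, which corresponds to 0.0702 to 0.124 CPM (counts scaled for library size) and covers counting error only. The muscle form Rpl3l (3 to 13 counts per library), Rpl39l (0 to 7 counts) and Rpl32l (1 to 5 counts) were close to that floor, while the parents Rpl3 and Rpl10 averaged 731 and 1800.2 TPM. The copy Rps27rt averaged 90.5 ± 6.64 TPM in NP, 79.9 ± 6.74 TPM in vehicle and 82.3 ± 10.5 TPM in day 14 lungs (SD, n = 4 each). Reads of such copies and of their parents can be divided between the entries in counting, so their levels are uncertain. The 5 members with the fewest counts (Rpl10l, Rps12l1, Rpl3l, Rpl39l and Rpl32l) did not pass the filter on low counts, and 89 of 94 were tested.

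The subunit genes moved together from library to library more than they differed between groups. Day 14 replicate 2 was the highest of the 12 libraries for 73 of 77 subunit genes (94.8%), and day 14 replicate 1 for the other 4. For comparison, day 14 replicate 2 was highest for 18.3% of all 17909 genes tested. The median deviation of the subunit genes from their mean over the 12 libraries, in log2 CPM, was −0.10, −0.06, 0.02 and −0.12 in the NP libraries, −0.01, −0.02, −0.04 and −0.03 in the vehicle libraries and 0.14, 0.29, −0.01 and −0.08 in the day 14 libraries. Day 14 replicates 3 and 4 therefore lay among the day 21 libraries, and only replicates 1 and 2 stood above them. NP replicate 4 was the lowest library for 33 of 77 subunit genes and day 14 replicate 4 for 16.

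The median correlation between pairs of subunit genes, given as a description, was 0.83 over the 12 libraries. It was 0.65 without day 14 replicate 2 and 0.45 over the 10 libraries left without day 14 replicates 1 and 2. All genes of a library share its composition and depth, and no such correlation was computed for other genes. The spread within groups was small. The median SD of log2 CPM about the group means was 0.111 for subunit genes, and 0.0784 without day 14 replicate 2. For the 4343 genes at or above the lowest subunit gene in CPM it was 0.102, and 0.0774 without that library. These 4343 include the subunit genes, and levels were not matched.

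Other gene groups deviated in the same library. In day 14 replicate 2 the median deviation was 0.24 for 30 nuclear genes of oxidative phosphorylation, 0.21 for 78 genes of the mitochondrial ribosome and 0.21 for 24 other TOP transcripts. Transcript length moved with it as well, among genes outside the members at or above the lowest subunit gene in CPM. Their median deviation in day 14 replicate 2 was 0.03 for 635 genes with transcripts under 1000 bases. It was −0.25 for 1123 genes with transcripts of 4000 bases and over. The length of a gene was taken as the median over its protein-coding transcripts. The median of these lengths over the 77 subunit genes was 711.5 bases, and the largest was 3706 bases. The part of transcript length in the deviation of the subunit genes was not tested.

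**Figure D2:**
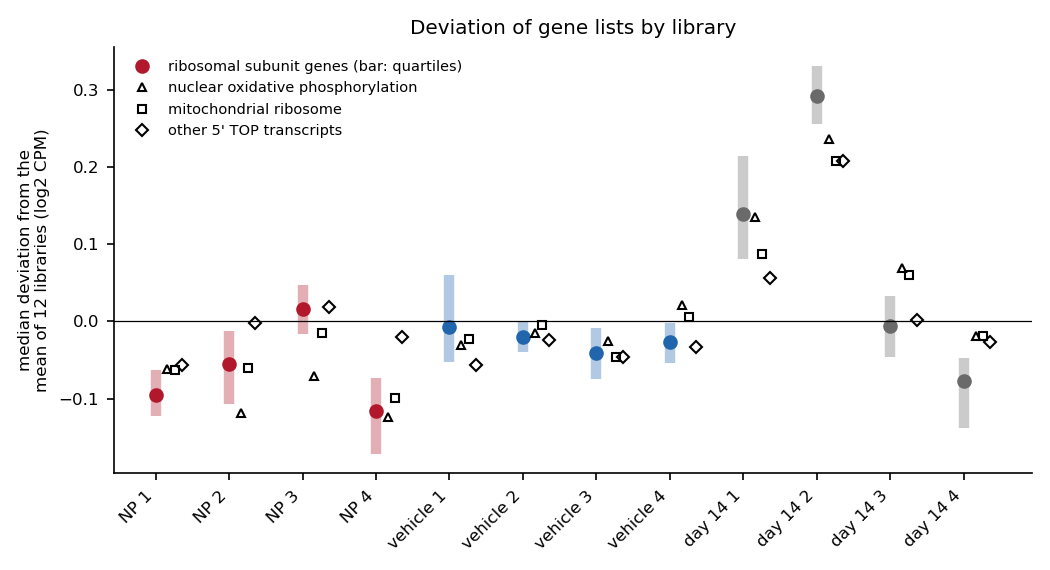
Median deviation of the 77 subunit genes from their mean over the 12 libraries (vertical axis, log2 CPM; filled circles, with bars from the lower to the upper quartile), with the medians of 3 other gene lists as open symbols. Day 14 replicates 1 and 2 lie above the other libraries, at 0.14 and 0.29.

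Nanoparticle-treated lungs at day 21 had lower levels than day 14 lungs for 9 of 89 ribosomal genes, 10.1%, and higher levels for 0 (edgeR's quasi-likelihood test, Benjamini-Hochberg adjusted p under 0.05 over 17909 genes). Over all genes tested the share called lower in this comparison was 8.56%, and 6.16% were called higher, so the share among the members was near that of all genes in this fit. The 9 were Rps27l, Rpl41, Rpl15, Rps2, Rpl27, Rps26, Rpl39, Rpl38 and Rpl24, by 0.23 to 0.52 on the log2 scale. Smaller differences ran the same way: the fold change was below 0 for 86 of 89 members (96.6%, against 48.9% of all genes), with a median of −0.15 on the log2 scale against 0.01 for all genes. The 4 NP libraries lay wholly below the 4 day 14 libraries for 6 of 89 members (6.74%, against 10.6% of all genes) and wholly above them for 0 (8.47% of all genes). At an unadjusted p under 0.05 there were 40 members of 89, against 30.8% of all genes. Without day 14 replicate 2, 5 members were called, 70 of 89 were below 0 and the median was −0.07.

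**Figure D3:**
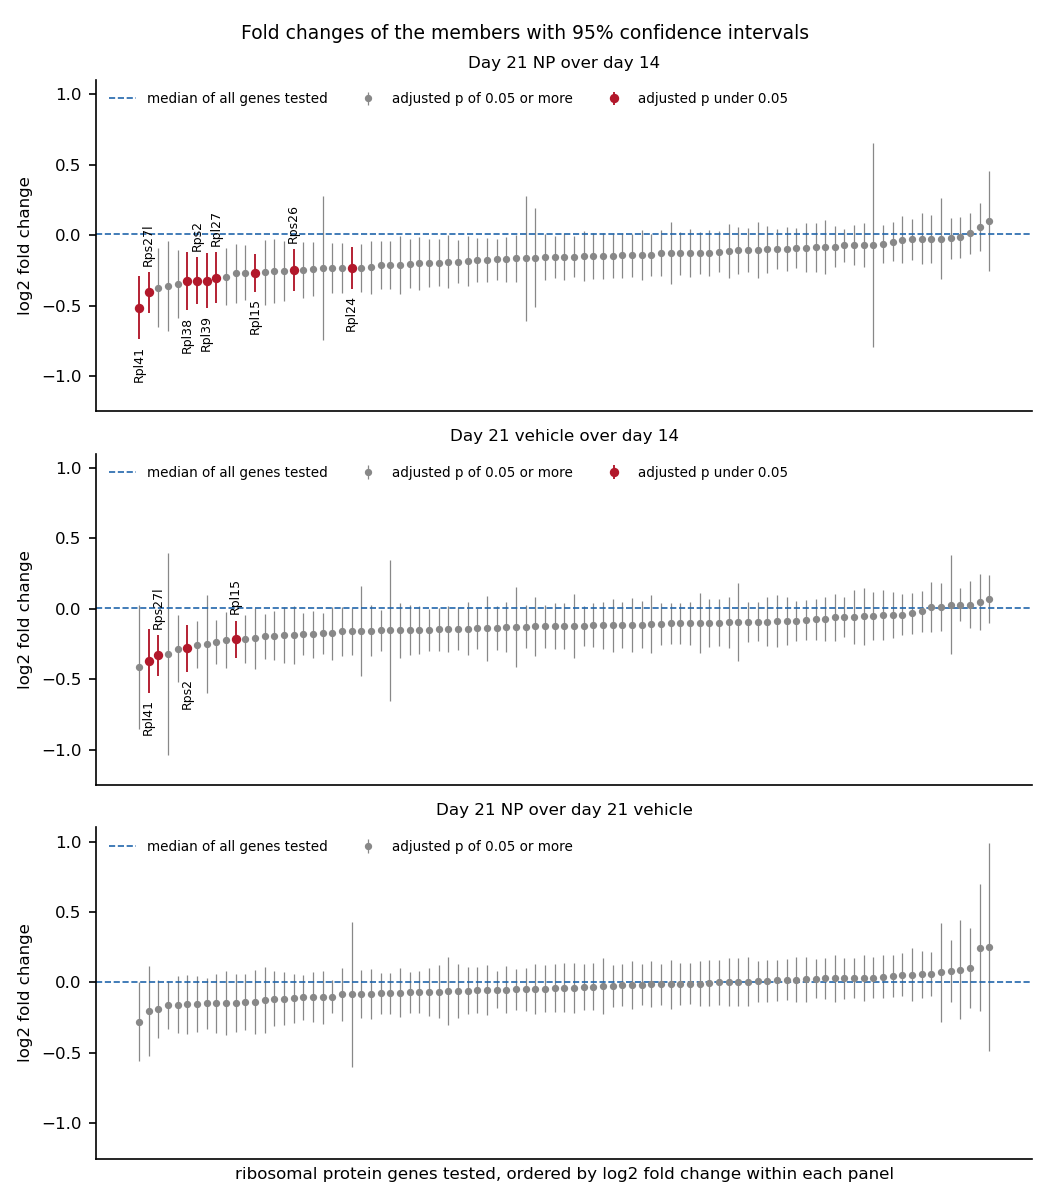
Log2 fold change (vertical axis) with its 95% confidence interval for the 89 members tested, ordered by value within each panel, for NP over day 14, vehicle over day 14 and NP over vehicle. The members lie mostly below the median of all genes (dashed line) in both comparisons with day 14, 9 and 4 of them past the threshold (red), and around it in NP over vehicle.

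Rps27l, a paralog of the small-subunit protein Rps27 that p53 activates in human cells, had 342, 298, 333 and 306 TPM in NP lungs, 309, 349, 323 and 331 TPM in vehicle lungs and 391, 422, 392 and 387 TPM in day 14 lungs. Every day 21 library lay below every day 14 library. In NP lungs it fell by 0.41 on the log2 scale (SE 0.067), to 0.754 times the day 14 level (95% confidence interval 0.683 to 0.833), with an adjusted p of 0.00228 in edgeR. The call held in 22 of 22 alternative settings, each of 12 single libraries left out included (largest adjusted p 0.017 in those fits).

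Rpl41, among the shortest proteins of the ribosome and part of a bridge between the subunits, had 1524, 1448, 1560.0 and 1402 TPM in NP lungs, 1613, 1628, 1617 and 1532 TPM in vehicle lungs and 2236, 2133, 1925 and 1648 TPM in day 14 lungs. The day 14 libraries were widely spread, and all NP and vehicle libraries lay below them in TPM. In CPM the NP libraries did so as well, but vehicle replicates 1 and 3 (199 and 198 CPM) lay above day 14 replicate 4 (195 CPM). Rpl41 had the largest difference of any member called, a fall of 0.52 on the log2 scale (SE 0.105, adjusted p 0.00642 in edgeR). This call also held in 22 of 22 settings, with adjusted p up to 0.0263 in edgeR, limma and DESeq2.

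Rpl15, a large-subunit protein mutated in some patients with Diamond-Blackfan anaemia, had 597, 595, 590.1 and 551 TPM in NP lungs, 576, 621, 583 and 589.8 TPM in vehicle lungs and 717, 758, 677 and 640.1 TPM in day 14 lungs. Rps2, a small-subunit protein at the messenger RNA entry channel, had 1117, 1119, 1169 and 1047 TPM in NP lungs, 1102, 1218, 1097 and 1147 TPM in vehicle lungs and 1385, 1515, 1325 and 1233.9 TPM in day 14 lungs. For both genes all 8 day 21 libraries lay below the 4 day 14 libraries. In NP lungs Rpl15 fell by 0.27 (SE 0.062, adjusted p 0.0127 in edgeR) and Rps2 by 0.32 on the log2 scale (SE 0.078, adjusted p 0.0155 in edgeR). The call of Rpl15 held in 22 of 22 settings and that of Rps2 in 21, lost without NP replicate 4 (adjusted p 0.053 in edgeR).

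**Figure D4:**
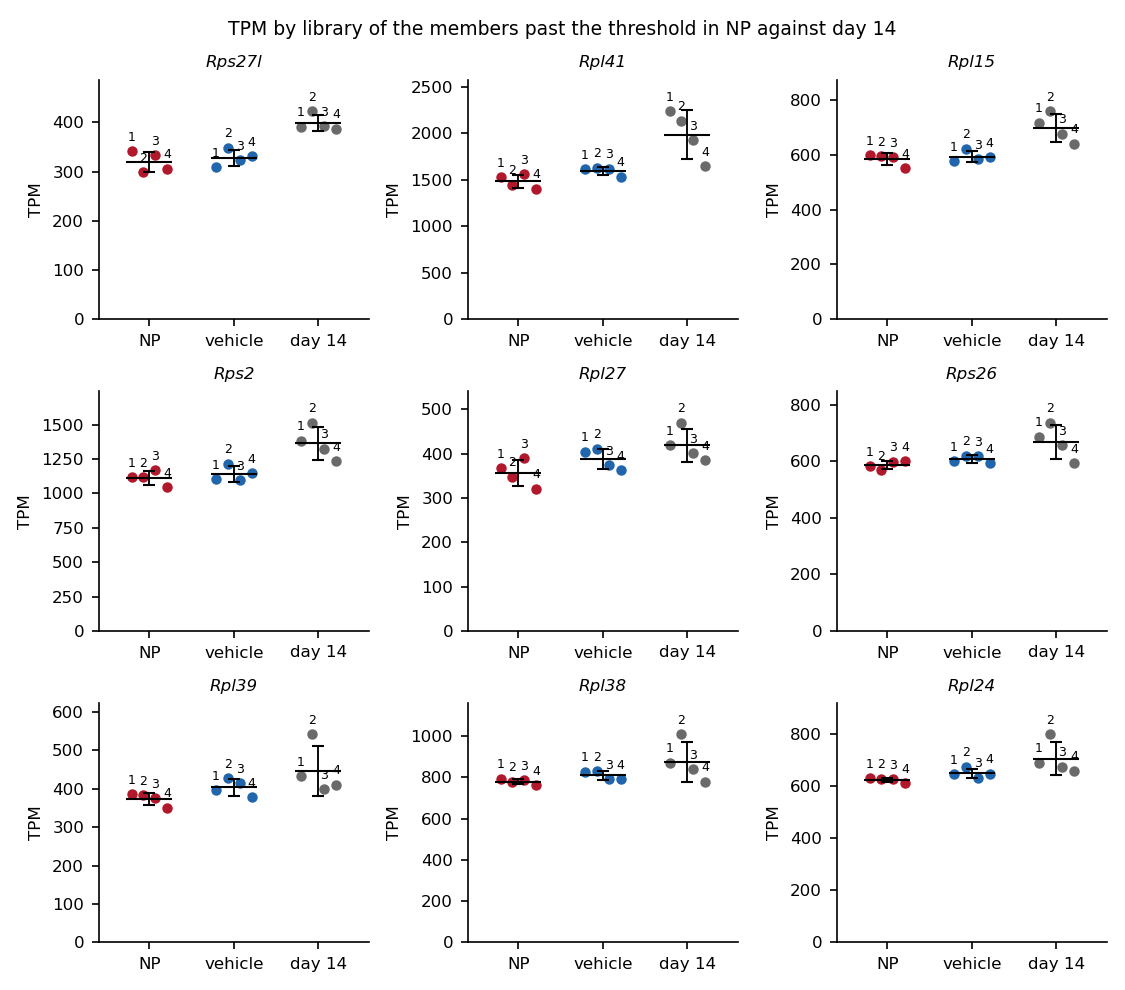
TPM (vertical axis, from 0) of the 9 members called in NP against day 14, by library, with replicate numbers above the points and the group mean ± SD in black. Rps27l, Rpl41, Rpl15 and Rps2 have every day 21 library below every day 14 library, while the NP and day 14 libraries overlap in Rpl27, Rps26 and Rpl38.

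The other 5 genes called in NP against day 14 depended on single libraries. Rpl39, which lines the exit tunnel of the nascent peptide, had 350.2 to 385 TPM in NP lungs and 399 to 542 TPM in day 14 lungs (change −0.32, SE 0.092, adjusted p 0.0323 in edgeR), without overlap. Rpl24, a bridge protein whose loss of 1 copy gives the Belly spot and tail mouse, had 611 to 629.8 TPM in NP lungs and 659 to 799 TPM in day 14 lungs (change −0.23, SE 0.069, adjusted p 0.0378 in edgeR), also without overlap. Rpl27, a large-subunit protein, had 321 to 389 TPM in NP lungs and 385 to 469 TPM in day 14 lungs (change −0.30, SE 0.084, adjusted p 0.0287 in edgeR), and the groups overlapped.

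Rps26, which contacts the messenger RNA at the exit channel, had 568 to 601 TPM in NP lungs and 592 to 736 TPM in day 14 lungs (change −0.25, SE 0.070, adjusted p 0.0291 in edgeR). Rpl38, needed for the translation of Hox messengers in mouse embryos, had 761 to 793 TPM in NP lungs and 778 to 1008 TPM in day 14 lungs (change −0.33, SE 0.097, adjusted p 0.037 in edgeR). In both genes day 14 replicate 4 lay within the NP range. Of the 12 fits that left out 1 library, the call held in 8 for Rpl39, 7 for Rpl27, 6 for Rps26, 4 for Rpl38 and 2 for Rpl24. The number of members called was 3 without NP replicate 4, 4 without NP replicate 1, NP replicate 2 or day 14 replicate 1, 5 without day 14 replicate 2 and 30 without day 14 replicate 4. As a share of members this was 5.62% without day 14 replicate 2, against 8.22% of all genes called lower in that fit. Without day 14 replicate 4 it was 33.7%, against 8.78% of all genes, so the members were then called lower more often than all genes.

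Vehicle-treated lungs at day 21 were lower than day 14 lungs for 4 of 89 members, 4.49%, and higher for 0 (edgeR's quasi-likelihood test). The share of all genes called lower was 6.51% and that called higher 3.79%, so the members were called lower about as often as other genes. These 4 were also among the 9 above; both comparisons share the day 14 lungs, so their values are only set side by side. Rps27l fell by 0.33 (SE 0.067, adjusted p 0.00933 in edgeR), Rps2 by 0.28 (SE 0.078, adjusted p 0.0367), Rpl41 by 0.37 (SE 0.105, adjusted p 0.0384) and Rpl15 by 0.22 on the log2 scale (SE 0.062, adjusted p 0.0406). The fold change was below 0 for 82 of 89 members (92.1%, against 49.4% of all genes), with a median of −0.12 against 0.00. The 4 vehicle libraries lay wholly below the 4 day 14 libraries for 9 of 89 members (10.1%, against 10.7% of all genes) and wholly above them for 0 (7.2% of all genes). At an unadjusted p under 0.05 there were 16 members of 89, against 27.3% of all genes.

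The call of Rps27l in vehicle against day 14 held in 22 of 22 settings (largest adjusted p 0.0426), and the 3 other calls did not. Only Rps27l was called in the fits without vehicle replicate 1, 2, 3 or 4, NP replicate 1 or 2, or day 14 replicate 1, 2 or 3, and 9 members were called without day 14 replicate 4 (10.1%, against 6.28% of all genes called lower in that fit). Without day 14 replicate 2 the median was −0.04 and 67 of 89 members were below 0. Rplp0, the base of the stalk, followed with a change of −0.25 (SE 0.078, adjusted p 0.0535 in edgeR), and Rpsa with −0.23 (SE 0.073, adjusted p 0.0554 in edgeR). In both genes the vehicle libraries lay below all day 14 libraries. The other stalk genes changed by −0.15 (Rplp1) and −0.12 (Rplp2), and Rps6 and Rpl11 by −0.12 and −0.10, with adjusted p of 0.262 to 0.438 in edgeR. In NP against day 14 the changes were −0.20 for Rplp0, −0.27 for Rplp1, −0.20 for Rplp2, −0.17 for Rpsa, −0.09 for Rps6 and −0.17 for Rpl11, and none of the 6 passed (adjusted p 0.0622 to 0.376 in edgeR).

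Nanoparticles against vehicle at day 21 gave 0 calls among the 89 members and 0% of all 17909 genes in edgeR's quasi-likelihood test. At an unadjusted p under 0.05 there were 0 members and 762 genes, 4.25%, and DESeq2 called 19 genes, 0 of them members. The number of members at an unadjusted p under 0.05 was 14 of 88 when only the 2 groups were fitted and up to 5 in the other settings, the 5 without day 14 replicate 2. The median change of the members was −0.04 on the log2 scale, and 60 of 89 were below 0 (67.4%, against 49.2% of all genes). The 95% confidence intervals of the 77 subunit genes all lay between −0.52 and 0.25 on the log2 scale, that is between 0.698 and 1.19 times the vehicle level. A difference beyond 0.5 was outside the interval for 76 of them (1 of 77 reached past it). The 5 members of smallest p were Rpl22l1 (−0.28, 95% confidence interval −0.56 to 0.00), Rps14 (−0.16, −0.33 to 0.01), Rpl37a (−0.19, −0.39 to 0.02), Rpl22 (−0.10, −0.22 to 0.01) and Rpl27 (−0.15, −0.33 to 0.03), all with an adjusted p of 0.999 in edgeR.

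Rps14, Rpl22, Rpl39, Rpl24 and Rpl11 had all 4 NP libraries below all 4 vehicle libraries in CPM, 5.62% of members against 1.75% of all genes. In CPM 0 members had all 4 above (1.8% of all genes). In TPM the NP and vehicle libraries overlapped for Rpl22, Rpl39 and Rpl11, and only Rps14 and Rpl24 of these genes stayed apart. Rps14 had 2393, 2470.2, 2335 and 2466 TPM in NP lungs and 2517, 2744, 2730.1 and 2778 TPM in vehicle lungs. Its day 14 values of 2651, 2786, 2518 and 2181 TPM spanned both groups.

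The ratio of a paralog to its parent within a library does not depend on library scaling. Rps27l stood at 10.8, 8.87, 9.91 and 8.92% of the Rps27 TPM in NP lungs, at 9.43, 10.3, 10.4 and 10.5% in vehicle lungs and at 14.3, 11.96, 13.7 and 13.2% in day 14 lungs. Every day 21 library lay below every day 14 library, and replicate 2 was the lowest of the day 14 libraries here, although it had the most TPM of both genes. Rps27 itself had 3165, 3362, 3357 and 3426 TPM in NP lungs, 3275, 3387, 3113 and 3149 TPM in vehicle lungs and 2736, 3529.7, 2874 and 2939 TPM in day 14 lungs. Its change was −0.03 in NP against day 14 and 0.01 in vehicle against day 14 (SE 0.084 and 0.083, adjusted p 0.864 and 0.945 in edgeR). The sign of both depended on the setting.

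The log2 ratio of Rps27l to Rps27 differed by −0.46 between NP and day 14 lungs and by −0.38 between vehicle and day 14 lungs. Each had a two-sided exact permutation p of 0.029, the smallest that 4 against 4 libraries can give. After Benjamini-Hochberg adjustment over 18 tests (6 pairs in 3 comparisons) this exact p became 0.171. An adjusted p under 0.05 would need most of the 18 tests to reach that smallest p. A single ratio could therefore not pass whatever its size, and the adjusted p decides nothing about these 2 differences. Between NP and vehicle lungs the difference was −0.08 (exact p 0.286).

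**Figure D5:**
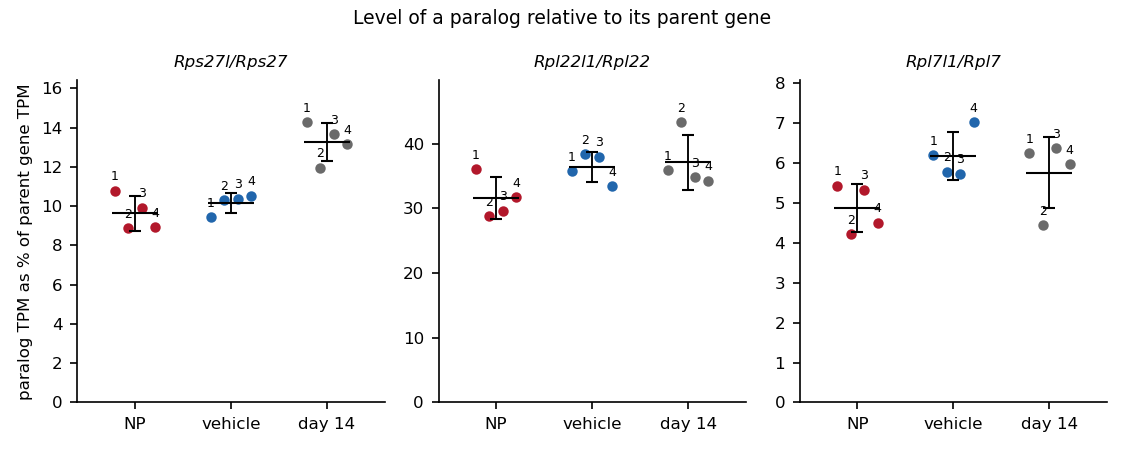
TPM of Rps27l, Rpl22l1 and Rpl7l1 as a percentage of the TPM of the parent genes Rps27, Rpl22 and Rpl7 (vertical axis, from 0) in each library, with replicate numbers and the group mean ± SD in black. Rps27l lies between 8.87 and 10.8% in the day 21 libraries and between 11.96 and 14.3% in the day 14 libraries.

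Rpl7l1, a protein related to Rpl7, formed the only other pair without overlap in TPM, between NP and vehicle lungs. It had 50.8, 40.5, 53.0 and 40.8 TPM in NP lungs, 57.2, 56.8, 51.3 and 63.4 TPM in vehicle lungs and 59.0, 48.2, 59.9 and 57.7 TPM in day 14 lungs. As a share of Rpl7 it lay at 4.21 to 5.43% in NP lungs and at 5.74 to 7.03% in vehicle lungs, a difference of −0.35 in the log2 ratio (exact permutation p 0.029, adjusted 0.171). From expected counts the difference was −0.07 and the groups overlapped. Its own level did not pass in any comparison (adjusted p 0.0867 to 0.999 in edgeR).

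Rpl22l1, a paralog whose expression Rpl22 restrains in mouse, had 213, 171, 179 and 190.0 TPM in NP lungs, 232, 247, 224 and 196 TPM in vehicle lungs and 219.6, 302, 199 and 214 TPM in day 14 lungs. Its change was −0.37 in NP against day 14 (SE 0.130, adjusted p 0.0712 in edgeR) and −0.09 in vehicle against day 14 (adjusted p 0.675). Its ratio to Rpl22 differed by −0.21 between NP and vehicle lungs (exact permutation p 0.0857, adjusted 0.294). The ratios of Rpl36al to Rpl36a, Rps4l to Rps4x and Rpl3l to Rpl3 had adjusted exact permutation p of 0.294 to 0.857, and Rpl3l rested on 3 to 13 counts. Rpl26l1 was not among the entries, and Rpl10l and Rpl39l had too few counts for a ratio.

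The start sites of these genes were set beside those of all genes. RefSeq promoters (build GRCm38.p6, 250 bases before to 50 bases from the start on) were at hand for 69 of 94 members, 57 of them subunit genes, and for 27025 genes in all. A run of at least 5 pyrimidines that begins with C within 5 bases of the start was found in 47.4% of subunit genes and 21.2% of all genes, and a run of at least 8 in 35.1% and 5.17%. The windows of the genes called in both comparisons with day 14, of Rpl38 and Rps26 and of the parent gene Rps27 are shown as examples. They differ in the run found at the annotated start. Each has 10 bases before the start and 20 from it on, and capitals mark the longest run of C and T that begins with C within 5 bases of the start.
Rps27l: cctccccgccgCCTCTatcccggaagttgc
Rps27: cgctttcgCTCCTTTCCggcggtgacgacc
Rpl41: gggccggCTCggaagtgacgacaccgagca
Rpl15: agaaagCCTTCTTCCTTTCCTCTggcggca
Rps2: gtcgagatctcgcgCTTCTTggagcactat
Rps26: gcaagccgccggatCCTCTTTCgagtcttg
Rpl38: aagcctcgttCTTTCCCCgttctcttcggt

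The run was 5 bases long in Rps27l and 9 in Rps27, 3 in Rpl41, 17 in Rpl15, 6 in Rps2 and 8 in both Rps26 and Rpl38. Among the 9 genes called in NP against day 14 it was between 2 bases (Rpl24) and 17 bases (Rpl15) long, with 5 in Rpl39 and 3 in Rpl27. In Rps2 and Rps26 the run began only at base 5 from the annotated start. Whether transcripts in these lungs begin at the annotated starts was not tested. A short run therefore does not show that a gene lacks a TOP tract. The windows lie at chr9:66946076-66946105 (plus strand, Rps27l), chr3:90213629-90213658 (minus strand, Rps27), chr10:128549149-128549178 (minus strand, Rpl41), chr14:18270967-18270996 (minus strand, Rpl15), chr17:24720053-24720082 (plus strand, Rps2), chr10:128626487-128626516 (minus strand, Rps26) and chr11:114668570-114668599 (plus strand, Rpl38). In the whole promoters, searched on both strands, the ETS core CCGGAAG was present in 42.1% of subunit genes and 9.93% of all genes. Of the genes shown, Rps27l, Rpl41, Rpl15, Rps2, Rps26 and Rpl38 held it and Rps27 did not. Of the genes called in NP against day 14 but not shown, Rpl39 held it, and Rpl27 and Rpl24 did not. The YY1 letters AAGATGGCG were present in 5.26% and 1.64%, Rps27 included, the GC box GGGCGG in 61.4% and 38.2%, CTTTCC in 50.9% and 29.3%, and TATAAA in 10.5% and 15.7%. CTTTCC can overlap the pyrimidine run. These matches describe letters in the reference and no binding.

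Genes that make, supply or regulate ribosomes were read from the same fits. Over all genes tested, 8.56% were called lower in NP against day 14 and 6.51% in vehicle against day 14. The shares of all genes called higher were 6.16% and 3.79%. Of 40 genes of ribosome biogenesis, 5 fell in NP against day 14 (12.5%) and 4 in vehicle against day 14 (10%). The medians were −0.07 in both comparisons, and 0 rose. Nop16 (change −0.34, adjusted p 0.00642 in edgeR) and Nhp2 (−0.39, adjusted p 0.0121), nucleolar proteins of large-subunit assembly and of the RNA-guided pseudouridylation complex, were lowest in p in NP lungs. Nop2, an RNA methyltransferase of the nucleolus, was lowest in p in vehicle lungs (−0.35, adjusted p 0.0136). Of 31 other translation factors, most of them initiation factors, 9 fell (29%) and 1 rose in NP against day 14. In vehicle against day 14, 5 fell (16.1%) and 1 rose (medians −0.15 in both comparisons). Eif4a1, the helicase that unwinds 5′ leaders, fell in NP lungs (−0.29, adjusted p 0.00487 in edgeR) and in vehicle lungs (−0.30, adjusted p 0.00652), and both calls held in 22 of 22 settings. Its paralog Eif4a2 rose in vehicle lungs (0.25, adjusted p 0.0292 in edgeR), a call that held in 15 of 22 settings. Eif6, which keeps the large subunit from joining early, fell in NP lungs (−0.30, adjusted p 0.0116 in edgeR).

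Of 24 other TOP transcripts, such as elongation factors and small nucleolar RNA hosts, 1 fell in NP against day 14 (Eef1g, −0.21, adjusted p 0.0413 in edgeR) and 2 in vehicle against day 14 (Pabpc1, −0.19, adjusted p 0.0454, and Eif3l, −0.16, adjusted p 0.0465). Their medians were −0.07 and −0.08, and these 3 calls held in 5, 2 and 3 of 22 settings. The shares called lower were 4.17% and 8.33%, against 8.56% and 6.51% of all genes. Of 20 mTOR and MYC regulators, 2 fell in NP against day 14 (10%) and 1 in vehicle against day 14 (5%), and 0 rose. Myc fell by 0.46 in NP lungs (adjusted p 0.0389 in edgeR; without day 14 replicate 1 or 3, vehicle replicate 3 or NP replicate 1, 2 or 4 it did not pass) and by 0.59 in vehicle lungs (adjusted p 0.0179; it did not pass without day 14 replicate 3). Mlst8, a subunit of both mTOR complexes, fell by 0.19 in NP lungs (adjusted p 0.0297 in edgeR), a call that held in 12 of 22 settings. In NP against vehicle, 0 genes of any of these lists were called.

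Mitochondrial gene groups moved beside the ribosomal genes. Of 30 nuclear genes of oxidative phosphorylation, 13 fell in NP against day 14 (43.3%, median −0.20) and 1 in vehicle against day 14 (3.33%, median −0.13). Cox5a, a subunit of cytochrome oxidase, fell in both (−0.39, adjusted p 0.00236, and −0.31, adjusted p 0.0104, in edgeR). Of 78 genes of the mitochondrial ribosome, 14 fell in NP against day 14 (17.9%, median −0.14) and 4 in vehicle against day 14 (5.13%, median −0.11). Day 14 replicate 2 was the highest library for 21 of the 30 and 53 of the 78 genes. The counts and medians of both lists were not repeated without it. Of 13 mitochondrially encoded genes, 4 rose in NP against day 14 (30.8%) and 2 in vehicle against day 14 (15.4%). Their summed level was 61520 to 74120 TPM in NP, 65480 to 70050 TPM in vehicle and 52790 to 63370 TPM in day 14 lungs. The means were 69780, 68080 and 59480 TPM, so on average they took a larger part of the total at day 21. The NP and day 14 libraries overlapped. With these genes left out of the total, the ribosomal genes held 8.69 ± 0.143% in NP, 8.79 ± 0.185% in vehicle and 9.17 ± 0.817% in day 14 lungs.

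Markers of dividing cells moved with the groups. All 20 of 20 cell-division genes fell in NP against day 14 (median −1.34) and all 20 in vehicle against day 14 (median −1.12). Their summed level was 164 to 243 TPM in NP, 191 to 269.9 TPM in vehicle and 384 to 429.8 TPM in day 14 lungs, with 0 of 20 at 0. Their median deviations in day 14 replicates 1 to 4 were 0.84, 0.86, 0.80 and 0.68, all above those of the day 21 libraries. Macrophage markers (0 of 10 at 0) summed to 584 to 1032 TPM in NP, 589 to 750.4 TPM in vehicle and 1017 to 1187 TPM in day 14 lungs, and 2 and 4 of 10 fell in NP and in vehicle against day 14. Of 10 fibroblast markers (0 at 0), 4 fell and 2 rose in both comparisons with day 14. Col1a1, a chain of the fibrillar collagen of scars, fell by 1.14 on the log2 scale in NP lungs (adjusted p 0.000758 in edgeR) and by 0.94 in vehicle lungs (adjusted p 0.00313). The fibroblast markers summed to 2973 to 3204 TPM in NP, 2887 to 3474 TPM in vehicle and 2732 to 3142 TPM in day 14 lungs. The part of these cell groups in the levels of the ribosomal genes was not tested.

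Of the other markers few passed. Of 10 markers each, 2 of alveolar type 2 cells rose in NP and 3 in vehicle lungs, and 1 of endothelium rose in NP and 0 in vehicle lungs. For T cells, B cells and neutrophils 0 of 10 passed in either comparison. The 10 neutrophil markers summed to 422 to 5808 TPM in NP, 251 to 590.3 TPM in vehicle and 142 to 364 TPM in day 14 lungs, with NP replicate 3 at the top. Of 14 heart muscle genes tested 1 rose in each comparison with day 14 (Myh7, 0.55 with adjusted p 0.0223 in NP and 0.71 with adjusted p 0.00954 in vehicle lungs), and of 5 skeletal muscle genes and 6 lung genes tested, 0 passed.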

How the data were processed

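Lung polyA RNA of 12 mice, 1 library each, was read as pairs of 151 bp, per the labels' protocols. GRCm38 is the build in the submitters' processing notes, which list STAR 2.7.8a and RSEM 1.3.3 after trimming by cutadapt 4.8. The sources used here do not give the strand setting or the annotation. Expected counts, whole numbers in the deposited table, and deposited TPM values, both computed by the authors, were used. Members and gene lists were chosen with earlier results of these data known.

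Counts were tested in edgeR 4.0.16 (R 4.3.3): filterByExpr (minimum count 10, minimum total 15; 17909 genes), TMM, 1 robust quasi-likelihood fit of 12 libraries with a term for group, two-sided contrasts, adjusted p under 0.05 by Benjamini-Hochberg over all genes, intervals of 95%. CPM values use TMM-scaled library sizes. Libraries of 1 group differed beyond counting noise (chi-square per degree of freedom 7.97 to 33.2). Ratios of 6 paralog pairs with at least 3 counts in every library were compared by exact two-sided permutation. The 22 alternatives were 2 other scalings, library sizes without the members, no filter on low counts, DESeq2 1.42.0, limma-trend 3.58.1 on log2(TPM + 1), with and without a filter, or log2(TPM + 0.1), only the 2 groups compared, a replicate block, and each of 12 libraries left out. The edgeR step was tested on simulated data.

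Values are given for members past the threshold, the 5 of smallest p where fewer than 5 passed, the 3 highest of each subunit, paralogs with their parents and members with known roles; of each other list up to 4 genes past the threshold could be named. Some genes that this choice would name are not reported here. Start-site sequences are RefSeq's.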

Additional observations from a re-analysis of the deposited data

Results flagged for a closer look

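Of 111 groups of 4 libraries examined, in the TPM of named members and in the share of TPM, 9 (8.11%) had a highest or lowest library far from the other 3, where chance gives about 1 in 20. In 4 of the 9 this was day 14 replicate 2, as the highest library: Rps27l (422 TPM, others 387 to 392 TPM), Rplp2 (873 TPM, others 642 to 672 TPM), Rps27a (975 TPM, others 731 to 770.3 TPM) and Rps4x (1381 TPM, others 1161 to 1193 TPM). NP replicate 4 was lowest for Rpl15 (551 TPM, others 590.1 to 597 TPM) and Rpl24 (611 TPM, others 627 to 629.8 TPM), and NP replicate 1 for Rplp1 (2404 TPM, others 2533 to 2559 TPM). Vehicle replicate 2 was highest for Rpl3 (748 TPM, others 708 to 713 TPM), and vehicle replicate 4 was lowest for Rpl41 (1532 TPM, others 1613 to 1628 TPM).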

How the results depend on the processing

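The 9 members called in NP against day 14 became 17 with DESeq2 (19.1% of members, against 9.98% of all genes called lower), 4 with only the 2 groups compared, 4 with each of 3 limma-trend fits on TPM, and 3 to 30 with each library left out. The 4 called in vehicle against day 14 became 1 with upper quartile factors, with only the 2 groups compared and with limma-trend on log2(TPM + 1) without a filter, and 1 to 9 with each library left out. In NP against vehicle 0 members were called in every setting run. In limma-trend on TPM the median change of the members was −0.09 in NP against day 14 and −0.07 in vehicle against day 14. With the replicate number as a block the counts were 10 in NP against day 14, 3 in vehicle against day 14 and 0 in NP against vehicle. Deviations of same-numbered libraries correlated at −0.115 to 0.209, and those of differently numbered libraries at −0.207 to 0.191. These correlations cannot decide whether same-numbered mice shared a batch or were paired. The share of the members was 8.69, 8.79 and 9.17% (NP, vehicle, day 14) without mitochondrially encoded genes and 2.17, 2.22 and 2.38% of expected counts, and 7.99 to 8.12%, 8.12 to 8.24% and 8.25 to 8.87% with a library left out.

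Among the results given here, signs turned only in differences that did not pass in edgeR or in the exact tests. In vehicle against day 14, the log2 ratio of Rpl7l1 to Rpl7 was −0.0543 from expected counts and −0.00707 to 0.167 with a library left out, that of Rpl22l1 to Rpl22 −0.059 to 0.0537 and that of Rpl36al to Rpl36a −0.0433 to 0.0214; that of Rpl3l to Rpl3 in NP against vehicle was −0.56 to 0.205. The fold change in vehicle against day 14 was −0.0178, −0.0177 and −0.0177 for Rpl22 and 0.0266, 0.0261 and 0.0261 for Rpl7l1 in limma-trend. With a library left out it was −0.00488 to 0.0802 for Rpl22, −0.172 to 0.0766 for Rpl22l1 and −0.032 to 0.118 for Rps27. In NP against day 14, Rps27 was 0.146 in 3 limma-trend fits and −0.0716 to 0.0781 with a library left out. The cause was not tested. Counting depth limits members near 3 counts, such as Rpl3l.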
